A study of Mus musculus with 2 samples.

Results

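Integrins are the receptors through which leukocytes hold on to vessel walls, matrix and other cells, and the 31 genes described here encode integrin chains and the adhesion molecules that work with them. They were taken by name and comprise 16 alpha chains, 7 beta chains and 8 other adhesion molecules (Icam1, Icam2, Vcam1, Selplg, Cd44, Pecam1, F11r and Jaml). All 31 were found among the 32285 genes of the deposited count tables. The set holds a selectin ligand, Selplg, and no selectin. The counts came from single-cell RNA sequencing of leukocytes sorted for CD45 from B16F10 tumours, a mouse melanoma line grown under the skin of wild-type (WT) mice. There were 2 libraries, 1 per group. Control mice had received bone-marrow-derived macrophages (BMDMs) without treatment, and IL4 mice had received BMDMs treated with IL-4, a cytokine of type 2 immunity. The grouping follows the treatment listed among the sample characteristics, since the treatment protocol names IL-4-treated BMDMs for both libraries. Age, sex and number of the mice are not given in the sources used here, and transferred and host cells were not told apart.

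An integrin is a heterodimer of 1 alpha and 1 beta chain, and neither chain reaches the cell surface alone. The beta 2 integrins belong to leukocytes and bind ICAMs and complement fragments, the beta 1 and alpha V integrins bind mainly matrix proteins such as collagen, laminin, fibronectin and vitronectin, and the beta 7 integrins bind MAdCAM-1 in gut vessels or E-cadherin on epithelium. In leukocyte recruitment, selectin ligands mediate rolling, integrins bound to ICAM or VCAM mediate arrest, and junctional molecules such as PECAM-1 and JAM take part in passage through the endothelium.

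Every value below is a level of transcript: unique molecular identifiers (UMIs), which count captured RNA molecules, were summed over all cells of a type in a library and scaled to counts per 1000000 UMIs of that type (CPM). Since a molecule is counted once whatever its length, CPM of different genes can be set side by side, although capture may differ between genes. Pairs of values are given as control and IL4. With 1 library per group there is no replicate check and no test, and every 95% interval is an exact Poisson or binomial interval that covers counting error only. Differences between animals, sorts and library preparations cannot be told apart from the treatment.

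The libraries held 8994 and 13873 barcodes with 95499107 and 133151428 UMIs, and 8937 and 13762 barcodes were kept, with medians of 9207 and 8256.5 UMIs. Ptprc, which encodes CD45, had a UMI in 89.0% and 89.9% of them. The libraries shared 23 barcode sequences. Cells were assigned to types by the number of distinct markers with a UMI, out of 8 per type, and none of the 31 genes is a marker. A gate took in 71.3% and 69.6% of kept barcodes. There were 1726 and 2576 macrophages, 2747 and 4192 monocytes, 248 and 341 type 1 conventional dendritic cells (cDC1), 552 and 799 type 2 conventional dendritic cells (cDC2), 306 and 559 mature migratory dendritic cells (DCs), 270 and 119 neutrophils, 187 and 457 NK cells, 91 and 193 CD8 T cells and 114 and 164 CD8-negative T cells, which had no Cd8a or Cd8b1 UMI or no more of them than of Cd4. Nonclassical monocytes (46 and 52), plasmacytoid DCs (pDCs, 35 and 102) and B cells (54 and 31) had fewer than 50 cells in at least 1 library and are given as levels without a fold. Orders of levels below are among the 9 larger types unless one of these 3 is named. Among barcodes with transcripts of Xist or of Y-linked genes but not both, 36.8% and 10.9% were Y-linked. Log2 ratios within the 2 kinds are therefore given, Xist-only first, for those of the 31 genes counted as different below. RNA from broken cells also enters droplets, and its level was estimated from genes of the other lineage, which gave 4.53% to 21.3% of a gene's level in the whole library, depending on the type. A level whose interval lies above that is said to be above free RNA.

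A pair was counted as carried by a type when both of its chains stood at 20 CPM or more in both libraries, which describes transcripts and not surface protein. Of 21 known pairs of the listed chains, NK cells carried the most with 10, followed by monocytes, cDC1 and CD8-negative T cells with 9 each and macrophages with 8. Neutrophils and CD8 T cells carried 7, cDC2 6 and mature migratory DCs 5. The pair α4β1, a receptor for VCAM-1 and fibronectin, was carried by all 9 of these types, and so were αVβ1, αMβ2 and α4β7. In CD8 T cells the αM chain of αMβ2, and in CD8-negative T cells that chain and the α5 chain of α5β1, did not lie above free RNA in both libraries, so without these there are 6 and 7 pairs. The minimum itself sets part of such a count: the 9 types added up to 70 pairs at 20 CPM, 85 at 10 CPM and 47 at 50 CPM.

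**Figure D1:**
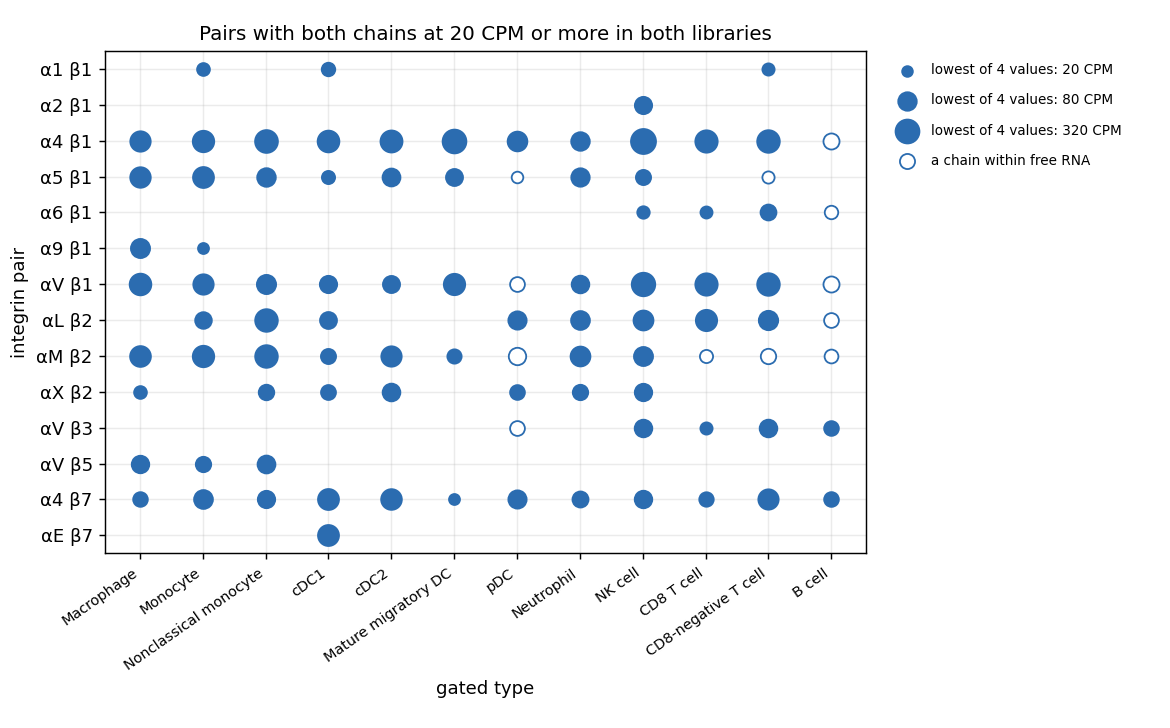
Integrin pairs (vertical axis) carried by each gated type (horizontal axis), with both chains at 20 CPM or more in both libraries; the area of a point grows with the logarithm of the lowest of its 4 chain values in CPM. Open points mark pairs with a chain that does not lie above free RNA, and αEβ7 has a point in cDC1 only.

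The remaining pairs divided the types. Collagen-binding α1β1 was carried by monocytes, cDC1 and CD8-negative T cells, and α2β1 by NK cells. Laminin-binding α6β1 was carried by NK cells and both T cell classes. Macrophages and monocytes were the 2 types with α9β1 and αVβ5, and lymphocytes of the 3 kinds (NK, CD8 T and CD8-negative T cells) were those with αVβ3. The fibronectin receptor α5β1 was carried by 8 of the 9 types, all but CD8 T cells, and αXβ2 (CD11c with CD18) by macrophages, cDC1, cDC2, neutrophils and NK cells. The leukocyte pair αLβ2 (LFA-1) was carried by monocytes, cDC1, neutrophils and the 3 lymphocyte types, but in macrophages its α chain Itgal stood at 18.9 and 20.4 CPM, on both sides of the minimum. So did Itga5 in CD8 T cells (19.0 and 28.1 CPM) and Itga6 in cDC1 (21.8 and 18.9 CPM). Itga1 in NK cells (21.8 and 13.8 CPM) and Itgax in monocytes (22.9 and 15.3 CPM) did as well. Only cDC1 carried αEβ7 (CD103 with β7). Among the types with few cells, nonclassical monocytes carried 8 pairs, all above free RNA, pDCs 8, of which α4β1, αLβ2, αXβ2 and α4β7 were above free RNA, and B cells 7, of which αVβ3 and α4β7 were.

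The share of a type's alpha chain UMIs taken by its leading chain showed how narrow each repertoire was. In mature migratory DCs, Itga4 made up 70.9% and 70.3% of alpha chain UMIs and Itgb1 82.3% and 80.9% of beta chain UMIs. In T cells the leading alpha chain was Itgav, with 54.4% and 48.6% in CD8 T cells and 53.4% and 52.1% in CD8-negative T cells. Itgam led in macrophages (38.6% and 32.3%), monocytes (44.0% and 39.4%) and neutrophils (45.3% and 43.8%), and Itga4 in cDC1 and NK cells. In cDC2 the leading chain was Itgam in the control library (238 CPM, with Itga4 at 209) and Itga4 in the IL4 library (241 CPM, with Itgam at 198). Itgb1 was the leading beta chain in 8 of the 9 types, and Itgb2 in neutrophils, with 40.3% and 38.1%. In neutrophils Itgb2 stood at 143 and 110 CPM and Itgb1 at 120 and 81.8 CPM, with intervals that overlap in both libraries. The 2 chains were also close in monocytes, with Itgb1 at 168 and 174 CPM and Itgb2 at 164 and 166 CPM.

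**Figure D2:**
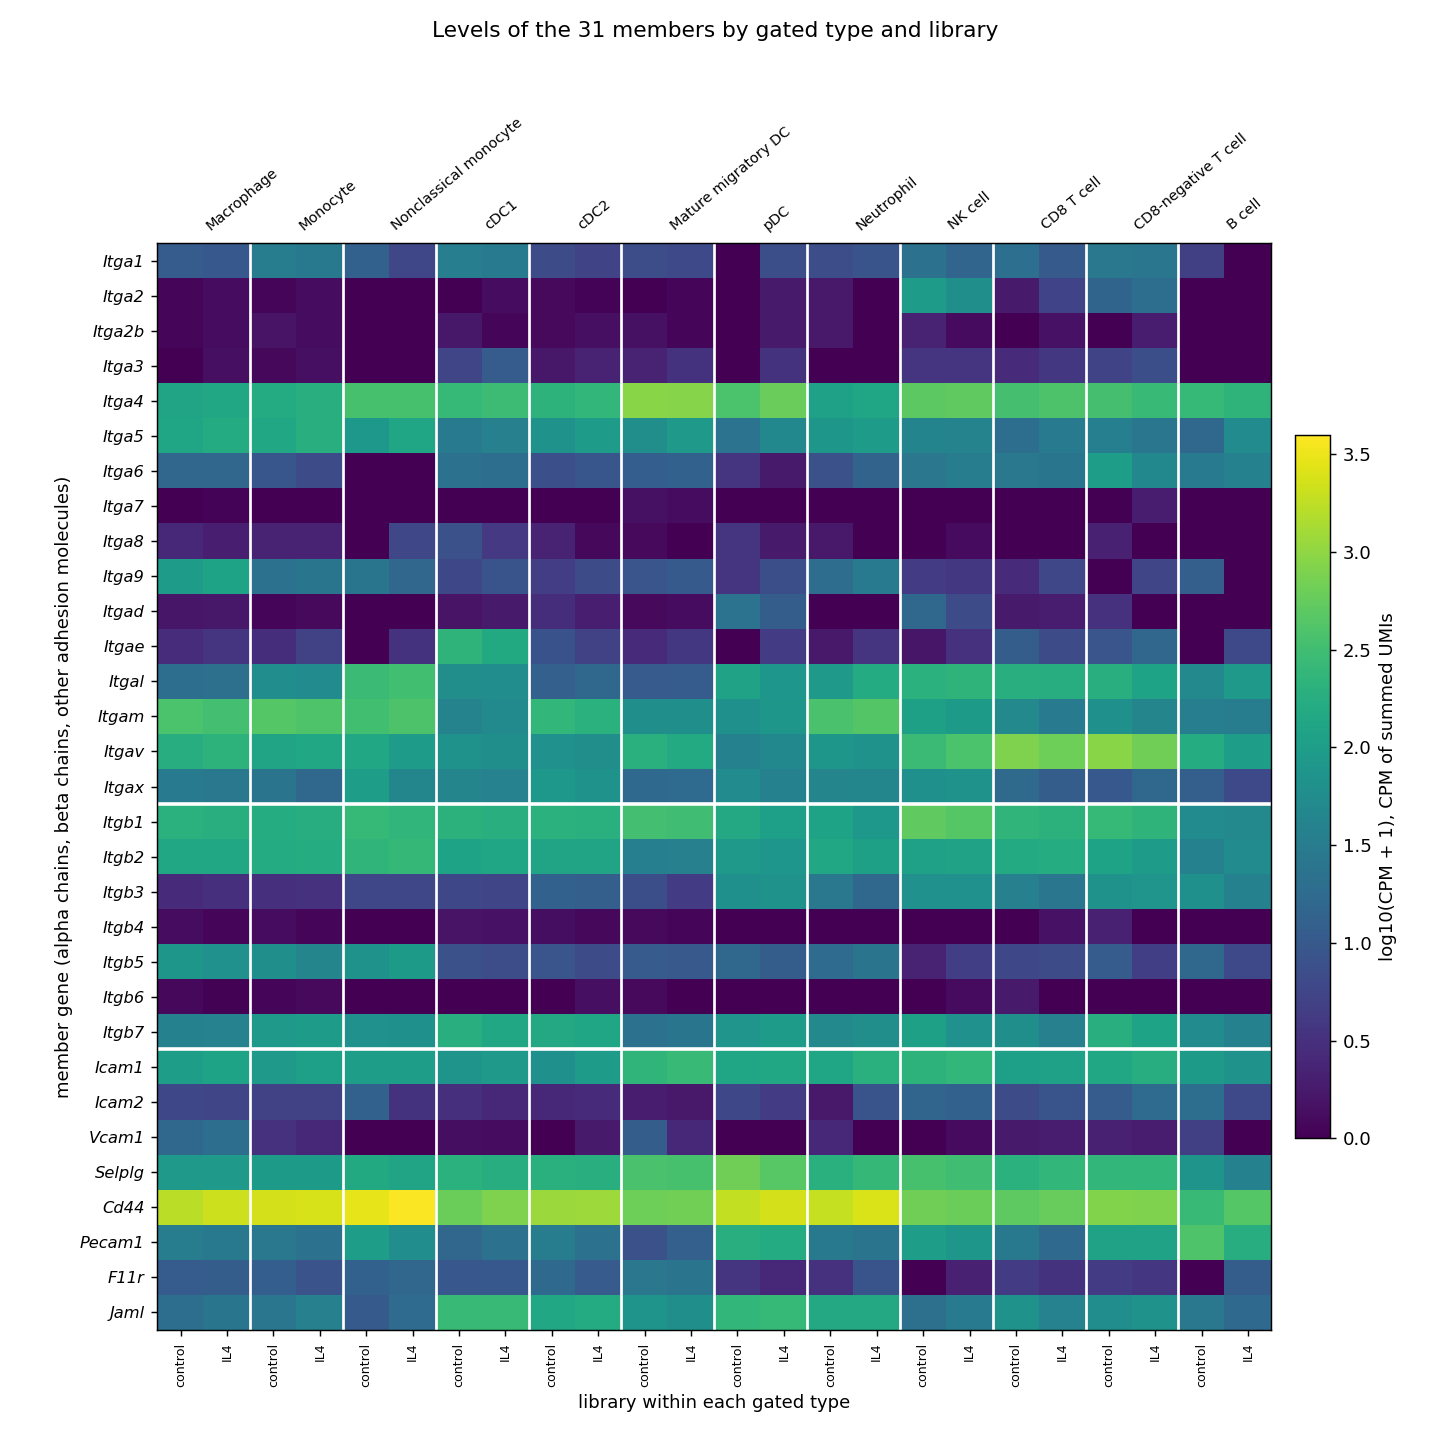
Level of each of the 31 genes (rows: alpha chains, beta chains, other adhesion molecules) in each gated type and library (columns, control and IL4 side by side), as the base-10 logarithm of CPM plus 1. Cd44 is bright in every column, Itgae in the cDC1 columns alone, and Itga2b, Itga7, Itgb4 and Itgb6 stay dark throughout.

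The beta 2 integrins share the chain Itgb2 (CD18, chr10:77530252-77565708, plus strand, mm10, GENCODE M21). Its levels lay between 97.9 and 167 CPM in both libraries of 8 types and at 34.4 and 36.2 CPM in mature migratory DCs, and the alpha chains differed more. Itgam encodes αM (CD11b), whose pair with β2 is the complement receptor CR3. In monocytes it stood at 453 CPM with control cells (95% interval 445 to 461) and 412 CPM with IL4 cells (405 to 418), in neutrophils at 362 and 435 CPM and in macrophages at 375 and 339 CPM, and cDC2 followed at 238 and 198 CPM. Monocytes were highest in the control library, with intervals apart from both other types. In the IL4 library neutrophils were highest, with an interval that overlaps that of monocytes, and both stood above macrophages. After every cell was thinned to 1000 UMIs, 33.0% (exact 95% interval 31.2% to 34.8%) of control monocytes had an Itgam UMI, and the exact 95% interval of the IL4 share was 29.6% to 32.5%. The unthinned shares were 87.4% and 83.5%. In CD8 T cells, where Itgam was within free RNA, the thinned shares were 2.20% and 1.55%, with median depths of 9941 and 8921 UMIs against 9064 and 7908 in monocytes.

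Itgax, for αX (CD11c), lies next to Itgam on chromosome 7, and Itgad, for αD, follows it. Itgam occupies chr7:128062640-128118491, plus strand, Itgax chr7:128129547-128150657, plus strand and Itgad chr7:128154376-128223816, plus strand, and Itgal is on the same chromosome at chr7:127296260-127335138, plus strand. These neighbours had different orders. Among the 9 larger types Itgax was highest in cDC2 (82.4 and 67.6 CPM) and NK cells (63.5 and 66.8 CPM), whose intervals overlap, and nonclassical monocytes had 103 and 43.4 CPM. It stood at 28.7 CPM in control macrophages with an IL4 over control fold of 0.939 (95% interval 0.838 to 1.05) and at 22.9 and 15.3 CPM in monocytes, so that Itgam exceeded Itgax by more in monocytes than in cDC2. The 250 bases before each start, taken from a RefSeq table on GRCm38.p6 (plus strand, chr7:128062390-128062639 for Itgam and chr7:128129300-128129549 for Itgax), are shown because the genes are close neighbours with unlike patterns. Capitals mark GAGGAA on either strand, a purine-rich sequence of the kind bound by the myeloid factor PU.1.
Itgam: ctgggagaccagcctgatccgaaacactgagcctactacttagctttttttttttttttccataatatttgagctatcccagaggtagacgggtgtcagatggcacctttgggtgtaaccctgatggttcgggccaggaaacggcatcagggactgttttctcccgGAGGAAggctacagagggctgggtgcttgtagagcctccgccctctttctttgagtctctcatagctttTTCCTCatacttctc
Itgax: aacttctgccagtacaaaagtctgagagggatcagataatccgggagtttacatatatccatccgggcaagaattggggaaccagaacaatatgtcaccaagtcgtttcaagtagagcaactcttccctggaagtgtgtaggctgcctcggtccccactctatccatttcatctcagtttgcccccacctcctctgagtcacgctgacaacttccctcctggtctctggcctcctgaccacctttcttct
The Itgam window holds GAGGAA on the plus strand, with its first base 84 bases before the start. It also holds GAGGAA on the minus strand, printed as TTCCTC, whose leftmost base lies 15 bases before the start. The Itgax window holds no match. Of 32817 windows of this length in the table, 23.3% hold the sequence on at least 1 strand, and so do 9 of 21 windows that belong to 19 of the 31 genes. A match describes letters in the window and not a site in use.

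Itgal, for αL of LFA-1, the ICAM receptor of the immune synapse, was highest among the 9 larger types in NK cells (196 and 218 CPM), with CD8 T cells at 184 and 173 CPM, whose intervals overlap those of NK cells in the control library and lie below them in the IL4 library. It stood at 184 and 119.9 CPM in CD8-negative T cells and 86.3 and 161 CPM in neutrophils. Nonclassical monocytes, which patrol vessel walls with LFA-1, had more than any of these, 281 and 320.4 CPM, from 117 and 133 UMIs. Macrophages, cDC2 and mature migratory DCs were lowest of all 12 types, down to 9.66 and 10.1 CPM in the last. Itgad reached 14.8 and 5.73 CPM in NK cells and 22.7 and 10.5 CPM in pDCs and at most 2.23 CPM in any library of the other types, with 50 UMIs over both libraries in no type.

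Of the beta 1 partners, Itga4 (chr2:79255426-79333123, plus strand), which pairs with β1 to VLA-4 or with β7, was highest in mature migratory DCs, at 900.2 CPM with control cells (95% interval 872 to 929) and 869 CPM with IL4 cells (847 to 893). That exceeded NK cells at 487 and 524 CPM and pDCs at 386 and 595 CPM, with intervals apart in both libraries. NK cells came next in the control library and pDCs in the IL4 library, and macrophages (125 and 141 CPM) and neutrophils (115 and 136 CPM) had the lowest levels. Itgb1 itself was highest in NK cells, at 532 and 444 CPM, and second in mature migratory DCs, at 335 and 311 CPM. The fibronectin receptor chain Itga5 was highest in monocytes (144 and 178 CPM) and macrophages (129 and 163 CPM), with intervals apart in both libraries, and lowest in cDC1 and lymphocytes.

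Collagen and laminin receptors were sparser. Itga1 and Itga2, collagen receptor chains that lie side by side on chromosome 13 (chr13:114953096-115101964, minus strand, and chr13:114833081-114932100, minus strand), differed in where they were found. Itga1 was spread over cDC1 (33.5 and 30.4 CPM), monocytes (32.4 and 27.2 CPM), CD8-negative T cells (26.7 and 24.7 CPM) and NK cells (21.8 and 13.8 CPM). Itga2, whose product CD49b is a marker of mouse NK cells, stood at 93.7 and 61.3 CPM in NK cells and 13.4 and 19.2 CPM in CD8-negative T cells, and at 0 to 4.28 CPM in the other types. Itga6, a laminin receptor chain, was highest in CD8-negative T cells (100.2 and 46.7 CPM) and otherwise at most 37.2 CPM, in B cells from 8 and 7 UMIs. Itga9 (chr9:118606690-118901003, plus strand), a receptor chain for tenascin and osteopontin, was highest in macrophages at 92.4 CPM with control cells (95% interval 88.2 to 96.8) and 120.0 CPM with IL4 cells (116 to 124). Neutrophils (18.5 and 30.7 CPM), monocytes (20.8 and 24.2 CPM) and nonclassical monocytes (10 and 6 UMIs) came next, with intervals apart from macrophages in both libraries. Itga3, of a laminin receptor, and Itga8, of a nephronectin receptor, stayed under 20 CPM in every type. In cDC1 they stood at 4.58 and 10.3 CPM for Itga3 and 6.77 and 3.02 CPM for Itga8, the highest levels of the 9 larger types. Itga8 reached 4.82 CPM in IL4 nonclassical monocytes, from 2 UMIs.

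Alpha V integrins bind vitronectin and osteopontin and activate latent TGF-beta. Itgav (chr2:83724397-83806916, plus strand) was highest in CD8-negative T cells, at 902 CPM with control cells (95% interval 841 to 966) and 649 CPM with IL4 cells (602 to 698), and in CD8 T cells, at 808 CPM with control cells (95% interval 758 to 859.9) and 648 CPM with IL4 cells (614 to 683). The intervals of these 2 classes overlap in both libraries, and both classes stood above NK cells at 287 and 377 CPM and macrophages at 174 and 209 CPM. The possible beta partners differed between types. Itgb3 stood at 66.8 and 73.2 CPM in CD8-negative T cells, 66.1 and 65.9 CPM in NK cells and 63.0 and 70.7 CPM in pDCs, against 1.71 and 2.03 CPM in macrophages. Itgb5 stood at 78.3 and 64.5 CPM in macrophages and 60.7 and 42.2 CPM in monocytes, against 1.28 and 3.73 CPM in NK cells. Nonclassical monocytes also had Itgb5, at 69.7 and 89.1 CPM from 29 and 37 UMIs. The platelet partner Itga2b, the epithelial chains Itgb4 and Itgb6, and the muscle laminin receptor chain Itga7 were at most 1.28 CPM in every type and library and had at most 49 UMIs in a whole library.

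Itgb7 (chr15:102215995-102231944, minus strand) was highest in CD8-negative T cells in the control library (187 CPM) and in cDC1 in the IL4 library (145 CPM), with intervals that overlap, and all 9 types had 20 CPM or more in both libraries. Its partner Itgae (chr11:73090583-73147446, plus strand), CD103, the E-cadherin receptor chain of migratory cDC1 and of tissue-resident T cells, stood in cDC1 at 216 CPM with control cells (95% interval 204 to 229) and 153 CPM with IL4 cells (143 to 163). The next types were CD8 T cells in the control library and CD8-negative T cells in the IL4 library, with 10.7 and 5.71 CPM in the former and 7.79 and 14.6 CPM in the latter. After thinning to 1000 UMIs, 17.7% (exact 95% interval 13.2% to 23.1%) and 14.4% (exact 95% interval 10.8% to 18.5%) of cDC1 had an Itgae UMI, and unthinned 78.6% and 75.7%. In NK cells, which carry little of it, the thinned shares were 0% (exact 95% interval 0% to 1.95%) and 0.438% (exact 95% interval 0.0530% to 1.57%) and the unthinned ones 0.535% and 1.53%. Median depths were 21449 and 17151 UMIs in cDC1 and 6812 and 6298 in NK cells.

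The integrin counter-receptors had their own order. Icam1, the inducible ligand of LFA-1 and Mac-1, was highest in mature migratory DCs (224 and 264 CPM) and NK cells (214 and 241 CPM), which overlap in their intervals, and stood at 62.9 to 194 CPM in the other 7 types. Icam2, its constitutive relative, reached 20 CPM in no type, with 10.0 and 17.4 CPM in CD8-negative T cells, 14.1 and 12.3 CPM in NK cells and 18.8 and 5.32 CPM in B cells. Vcam1, the ligand of α4β1, was found mainly in macrophages, with a 95% interval of 13.4 to 16.9 CPM in control cells and of 17.4 to 20.8 CPM in IL4 cells, and it stood at 10.6 and 1.56 CPM in mature migratory DCs.

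Selplg encodes PSGL-1, the scaffold of the P-selectin ligand. Its level was 660.3 and 455 CPM in pDCs, 365 and 355 CPM in mature migratory DCs and 361 and 315 CPM in NK cells, against 85.1 and 88.7 CPM in macrophages. Cd44, the hyaluronan receptor that also binds E-selectin, was the most abundant of the 31 genes in both libraries of 6 of the 9 types. Itga4 exceeded it in mature migratory DCs and Itgav in CD8 T cells and, in the control library, in CD8-negative T cells. It stood at 2303 and 2391 CPM in monocytes, 1906 and 2472 CPM in neutrophils and 1668 and 2136 CPM in macrophages, and lowest of the 9 larger types in CD8 T cells at 509 and 574 CPM. Nonclassical monocytes had 2967 and 3734 CPM and B cells 275 and 452 CPM. Pecam1, a homophilic junction molecule of endothelium and leukocytes, was highest in B cells (399 and 176 CPM, from 106 and 33 UMIs) and pDCs (184 and 163 CPM), then in CD8-negative T cells (119 and 118 CPM). Summed over 6 endothelial markers, the level was near 0 in B cells (3.77 and 5.32 CPM) and CD8-negative T cells (1.11 and 4.58 CPM). In pDCs the sum was 131 and 139 CPM. It came from Cdh5 and Kdr, since the other 4 markers (Cldn5, Egfl7, Emcn and Tie1) had no UMI there in either library. F11r, for JAM-A, was highest in mature migratory DCs (25.7 and 23.6 CPM). Jaml, whose product binds the epithelial receptor CAR, was highest in cDC1 (278 and 263 CPM), with pDCs at 239 and 260.5 CPM, cDC2 at 141 and 162 CPM and neutrophils at 146 and 146 CPM.

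The comparison of the libraries asked whether these levels differed in tumours of mice given IL-4-treated cells. A gene was counted as higher or lower when it had at least 50 UMIs over both libraries in a type and the ratio of CPM plus 1 reached 1.5-fold, and the same count over all genes gives the background. Over the 9 types, 175 of 279 values had enough UMIs, 5 were higher and 15 lower (11.4% in all), and 14 of the 31 genes were counted at least once. Over all genes, 5820 of 77341 such values were counted, and the share of all genes counted at least once is not given. In macrophages 0 of 24 genes reached 1.5-fold, beside a background over all genes of 5.54% (2.47% higher and 3.07% lower). Their median log2 ratio was 0.07, against -0.09 over all genes. By the ratio of CPM plus 1, the highest were Itga9 and Cd44. Their folds of IL4 over control, without the added 1, were 1.30 (95% interval 1.22 to 1.38) and 1.28 (95% interval 1.26 to 1.30). Itgae, at the low levels of 1.87 and 2.59 CPM, had a larger fold without the added 1. Itgb5, the αV partner of macrophages, had a fold of 0.824 (95% interval 0.768 to 0.884). Itgam, their leading alpha chain, had a fold of 0.902 (95% interval 0.874 to 0.930). In monocytes 1 of 24 genes was counted, beside a background of 3.74% (1.99% higher and 1.75% lower), and the median log2 ratio was -0.00 against -0.03. That gene was Itgae at the low levels of 1.95 and 3.99 CPM, from 52 and 144 UMIs in 24 and 68 cells. Its log2 ratio was 0.76 in all cells, 0.89 among barcodes with Xist alone, -0.14 among those with Y-linked UMIs alone, and 0.24 in clusters used in place of gates. In the gated monocytes the 8 cDC1 markers, of cells rich in Itgae, summed to 497 and 506 CPM, 2 of them higher by 1.5-fold, and their part was not tested.

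**Figure D3:**
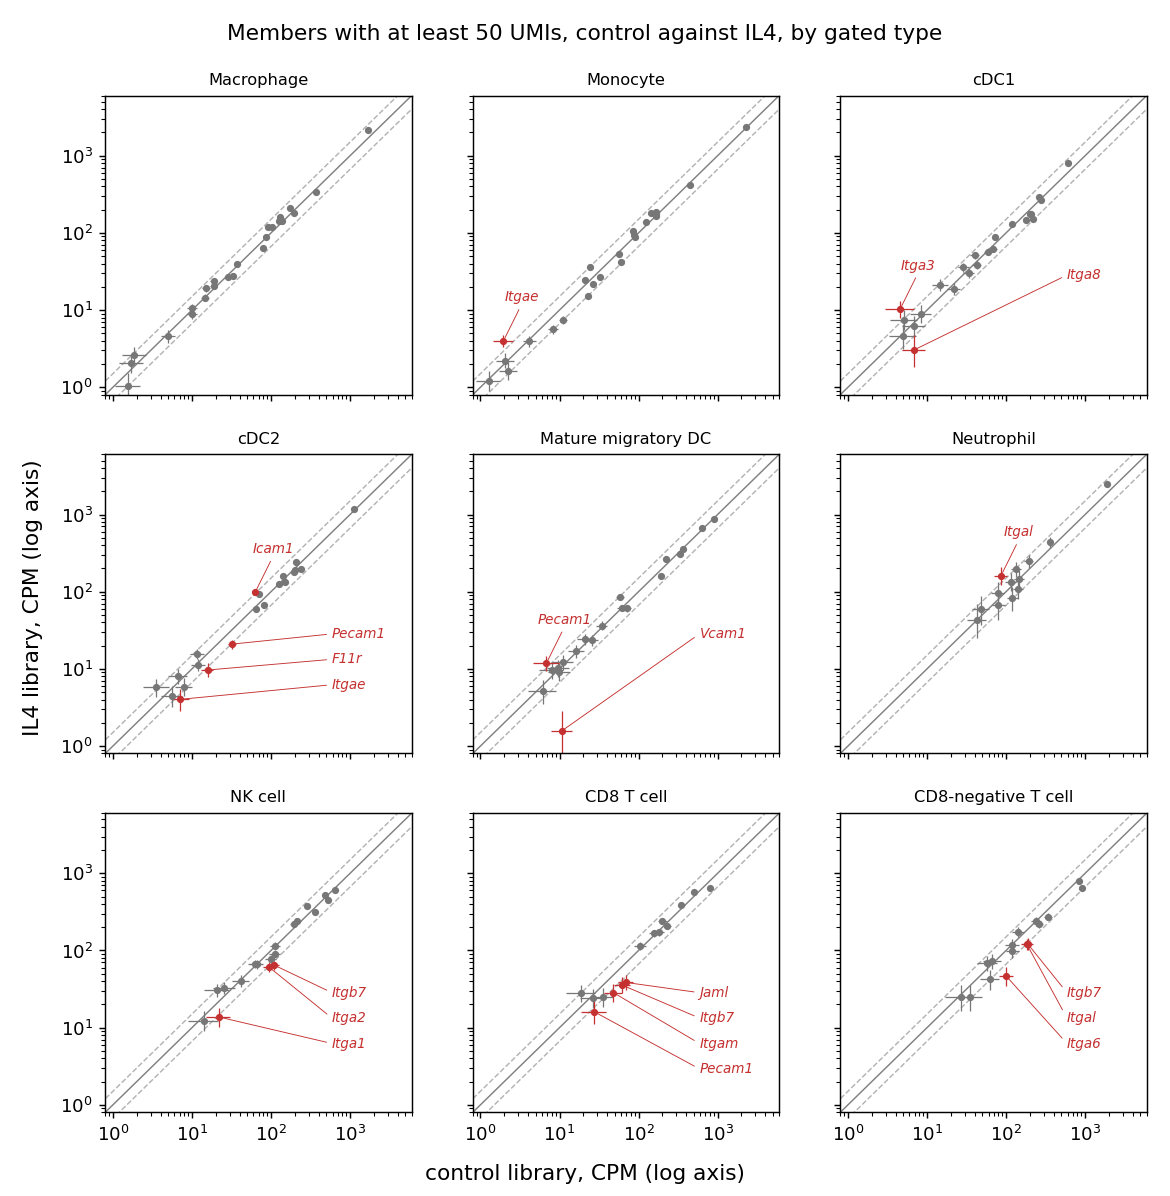
Level of each gene with at least 50 UMIs in the control library (horizontal log axis, CPM) and in the IL4 library (vertical log axis, CPM), a panel per gated type. Bars are 95% Poisson intervals, the solid line marks equal levels, the dashed lines 1.5-fold, and red points are the genes counted as higher or lower. No macrophage gene is red, and the red points of NK and T cell panels all lie below the lines.

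Beta 7 differed in lymphocytes. Itgb7 stood in NK cells at 109 CPM with control cells (95% interval 93.3 to 127) and 64.8 CPM with IL4 cells (56.6 to 73.8), a fold of 0.594 (95% interval 0.485 to 0.729). In CD8-negative T cells it stood at 187 CPM with control cells (95% interval 159.8 to 218) and 123 CPM with IL4 cells (103 to 145), a fold of 0.656 (95% interval 0.519 to 0.828). In CD8 T cells the levels were 61.8 and 35.7 CPM, a fold of 0.577 (95% interval 0.413 to 0.805). All 3 lymphocyte types thus had less Itgb7 in the IL4 library, and their intervals exclude 1. Itga4, the chain with which β7 makes the gut-homing receptor, did not share the pattern in NK cells (log2 ratio 0.10) and CD8 T cells (0.17). In CD8-negative T cells Itga4 was lower too, at 343 and 275 CPM (log2 ratio -0.31), within 1.5-fold. In cDC1 and cDC2, the other types rich in Itgb7, its levels were 179 and 145 CPM and 150.1 and 134 CPM, within 1.5-fold.

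Split into Xist-only and Y-only barcodes, the log2 ratio of Itgb7 was -0.82 and -0.66 in NK cells, -0.57 and -0.64 in CD8-negative T cells, and -0.41 and -2.20 in CD8 T cells, the last from 29 and 4 Y-only UMIs. All 6 values were negative. Without cycling cells it was -0.65 in NK cells and -0.45 in CD8 T cells, the latter short of 1.5-fold. With clusters in place of gates it was -0.65 in NK cells and -0.29 in all T cells together, again short of it, against -0.81 in all gated T cells. In CD8-negative T cells the summed level of the 4 regulatory T cell markers was 1805 and 1426 CPM, that of the 8 T cell markers 3182 and 2587 CPM and that of the 8 monocyte markers 1057 and 1277 CPM. In NK cells the 8 NK markers were close to equal, at 4077 and 4232 CPM with 0 of them at 1.5-fold, while the 4 regulatory T cell markers summed to 289 and 200.3 CPM, with Foxp3 at 0, and the 6 cycling markers to 371 and 501 CPM. The part of other cells in the result was not tested. The free-RNA estimate for Itgb7 in NK cells was 13.4 and 8.99 CPM.

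**Figure D4:**
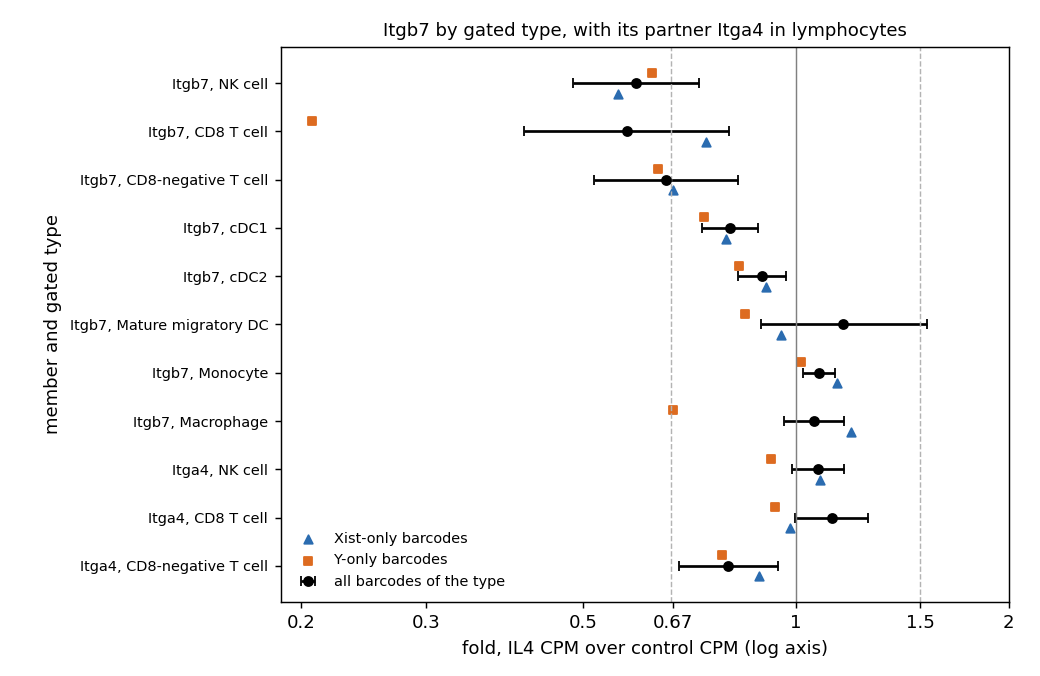
Ratio of IL4 over control, on a log scale, of Itgb7 and its alpha partner Itga4 in gated types. Values are over all barcodes, over Xist-only and over Y-only ones. The Itgb7 points of NK cells and both T cell classes lie below the level of no difference in each kind of barcode.

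NK cells had 3 of 19 genes at 1.5-fold, all lower, beside a background of 8.24% (3.14% higher and 5.1% lower). Besides Itgb7 these were Itga2, at 93.7 and 61.3 CPM, a fold of 0.655 (95% interval 0.528 to 0.814), and Itga1, at 21.8 and 13.8 CPM, a fold of 0.631 (95% interval 0.398 to 1.01) that does not exclude 1. Itga2 was lower within both kinds of barcode, with log2 ratios of -0.42 and -0.89. Itga1 was not: its log2 ratio was -1.31 with Xist alone and 1.93 with Y-linked UMIs alone. The level of Itgal, by contrast, was 196 and 218 CPM in the same cells. Itga1 and Itga2 mark different states of group 1 innate lymphocytes, ILC1 and circulating NK cells, which this gate did not separate. Without cycling cells the counted genes were not all lower: 2 were lower (Itga1 and Itgb7) and 2 higher (Itgav and Jaml). The log2 ratio of Itga2 was then -0.47, short of 1.5-fold.

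CD8 T cells had 4 of 15 genes at 1.5-fold, all lower, beside a background of 10.8% (6.32% higher and 4.51% lower), and CD8-negative T cells 3 of 16, all lower, beside 10.9% (5.74% higher and 5.16% lower). In CD8 T cells Jaml, whose product is a costimulatory receptor, stood at 69.2 and 38.5 CPM, a fold of 0.556 (95% interval 0.405 to 0.764), and its log2 ratio was -0.84 and -0.63 within Xist-only and Y-only barcodes. Pecam1 stood at 27.2 and 16.2 CPM, a fold of 0.594 (95% interval 0.357 to 0.990), with log2 ratios of -0.87 and 0.16 by kind of barcode. Itgam stood at 47.8 and 28.5 CPM, where free RNA gives 46.7 and 55.2 CPM, so the cells' own level is not shown, and its log2 ratio was -0.40 and -3.62 by kind of barcode. Other markers differed in the same cells: the 8 NK cell markers summed to 299 and 480.2 CPM, 1 of them higher by 1.5-fold, and the 8 monocyte markers to 1516 and 1907 CPM, 1 of them higher, and their part was not tested. Without cycling cells, which made up 38.5% and 36.8% of CD8 T cells, 1 of the 31 genes, Jaml, was counted in them. In CD8-negative T cells Itgal stood at 184 and 119.9 CPM, a fold of 0.653 (95% interval 0.515 to 0.826), and was lower within both kinds of barcode (-0.74 and -0.46). Its log2 ratio was -0.61 in all cells. It was -0.44 without cycling cells and -0.58 with a mitochondrial limit of 5%, both short of 1.5-fold. Itga6 stood at 100.2 and 46.7 CPM, but 1 control cell held 35 of its 90 control UMIs, and without cycling cells the log2 ratio moved from -1.09 to -0.37. By kind of barcode it was -1.45 and -0.28. With both classes taken as T cells, 4 of 18 genes (Itga1, Itga6, Itgam and Itgb7) were lower and 0 higher, beside a background of 7.2% (3.65% higher and 3.55% lower). In clusters used in place of gates, 1 gene was counted and was higher (Itga3), with 0 lower. The log2 ratios of Itga1, Itga6, Itgam and Itgb7 stayed negative there, at -0.33, -0.57, -0.28 and -0.29, short of 1.5-fold. The T cell cluster held 545 and 1042 cells, against 205 and 357 gated T cells. With free RNA subtracted, no Itgam level was left in T cells, whose 54.0 and 33.2 CPM lay within the estimate. The resulting log2 ratio of 0.00 is therefore no comparison of the libraries. Itgav, the leading alpha chain of T cells, had folds of 0.802 (95% interval 0.738 to 0.871) in CD8 and 0.720 (95% interval 0.650 to 0.797) in CD8-negative T cells, under 1.5-fold.

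Among dendritic cells, cDC2 had 4 of 21 genes counted, 1 higher and 3 lower, beside a background of 5% (1.66% higher and 3.34% lower). Icam1 was higher, at 62.9 CPM with control cells (95% interval 57.6 to 68.5) and 97.9 CPM with IL4 cells (91.8 to 104), a fold of 1.56 (95% interval 1.40 to 1.74). It was higher within both kinds of barcode (log2 0.52 and 0.83). Its log2 ratio was 0.63 in all cells, 0.55 with 1 marker more in the gate and 0.49 in clusters, the latter both short of 1.5-fold. Pecam1 was lower, at 32.1 and 20.9 CPM, a fold of 0.652 (95% interval 0.541 to 0.785), with log2 ratios of -0.44 and -1.38 by kind of barcode. F11r was lower at 15.7 and 9.65 CPM, a fold of 0.613 (95% interval 0.466 to 0.805), with -0.43 and -0.77. Itgae was lower at 7.08 and 4.02 CPM, a fold of 0.568 (95% interval 0.370 to 0.865), but its log2 ratio was -0.19 in Xist-only barcodes, short of 1.5-fold, and -1.77 in Y-only ones. With 1 marker more in the gate 1 of the 31 genes, F11r, was counted in cDC2, and in clusters 0. Centred on the median gene, 2 were higher (Itga9 and Icam1) and 2 lower (Itgae and F11r). In the gated cDC2, the 8 cDC2 markers summed to 2599.9 and 2355 CPM and the 8 monocyte markers to 1908 and 2337 CPM, and their part in these values was not tested.

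Mature migratory DCs had 2 of 20 genes counted beside a background of 7.35% (2.54% higher and 4.81% lower), and cDC1 2 of 23 beside 6.16% (2.2% higher and 3.96% lower). In mature migratory DCs, Vcam1 stood at 10.6 CPM with control cells (95% interval 7.74 to 14.2) and 1.56 CPM with IL4 cells (0.749 to 2.87), from 45 and 10 UMIs. The control UMIs came from 15 of 306 cells, and 19 of them from 1 cell. Its log2 ratio was -2.01 for Xist-only barcodes and 0.35 for the Y-only ones, so the difference rests on few cells. Pecam1 was higher there, at 6.83 and 11.9 CPM, a fold of 1.74 (95% interval 1.12 to 2.76), with a log2 ratio of 0.06 in clusters and of 0.92 and 0.43 by kind of barcode. The 8 neutrophil markers summed to 291 and 159 CPM in these cells and the 8 cDC1 markers to 707 and 908 CPM. In cDC1, Itga3 was higher, at 4.58 and 10.3 CPM, a fold of 2.26 (95% interval 1.40 to 3.74) from 25 and 65 UMIs, with log2 ratios of 0.82 and 0.52 by kind of barcode. Itga8 was lower there, at 6.77 and 3.02 CPM, a fold of 0.446 (95% interval 0.242 to 0.796) from 37 and 19 UMIs, with -1.07 and -1.06. In the gated cDC1 the 8 mature migratory DC markers summed to 105 and 191 CPM, 4 of them higher by 1.5-fold, and the 8 cDC1 markers to 4913 and 4327 CPM. The part of these shifts in either DC type was not tested. Itgae in cDC1 was within 1.5-fold, with a fold of 0.707 (95% interval 0.649 to 0.770) and log2 ratios of -0.53 and -0.14 within the kinds of barcode.

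Neutrophils had 1 of 13 genes counted, beside a background of 22.7% (8.51% higher and 14.2% lower), the highest of the types. Itgal stood at 86.3 CPM with control cells (95% interval 71.0 to 104) and 161 CPM with IL4 cells (124 to 206), a fold of 1.87 (95% interval 1.35 to 2.56), and was higher within both kinds of barcode (log2 0.80 and 1.49). With each cell weighted equally the log2 ratio was 0.43, short of 1.5-fold, and the gene then counted was Itgb1, lower. The neutrophils had median depths of 2990 and 2470 UMIs, and their 8 markers summed to 21454 and 33691 CPM. The part of depth and composition in this value was not tested.

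Genes that act with integrins were read from 6 lists, and their values were not split by kind of barcode. The 27 genes of integrin activation and adaptors, such as talin and kindlin, which switch integrins to the binding state, included 0 genes at 1.5-fold in monocytes, cDC1, cDC2, mature migratory DCs, NK cells and both T cell classes, with 20 to 24 genes tested in each, beside 3.74% to 10.9% of all genes in these types. In macrophages the count was 1 of 24, beside 5.54% of all genes, Skap1 at 2.70 and 4.90 CPM, where free RNA gives 3.51 and 5.04 CPM, and in neutrophils 2 of 18, beside 22.7%, Tln1 at 183 and 284 CPM and Vcl at 53.9 and 81.8 CPM. The median log2 ratio of this list in macrophages was -0.02, against -0.09 over all genes.

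In macrophages and monocytes, integrin ligands held larger differences than any of the 31 genes did. Of the 15 ligands, 2 of 6 tested were counted in macrophages, both lower, beside 5.54% of all genes, and 1 of 6 in monocytes, beside 3.74%. The counts were 1 of 4 in mature migratory DCs (all genes 7.35%), 2 of 3 in neutrophils (all genes 22.7%), 2 of 3 in NK cells (all genes 8.24%), 1 of 4 in CD8 T cells (all genes 10.8%) and 2 of 3 in CD8-negative T cells (all genes 10.9%), and 0 in cDC1 and cDC2. Fn1, fibronectin, the ligand of α5β1 and α4β1, stood in macrophages at 916 and 452 CPM, a fold of 0.494 (95% interval 0.482 to 0.505). Spp1, osteopontin, a ligand of αV integrins, α4β1 and α9β1, stood at 447 and 199 CPM in macrophages and 420.1 and 119.9 CPM in monocytes, folds of 0.445 (95% interval 0.430 to 0.461) and 0.285 (95% interval 0.276 to 0.296). Spp1 was also lower in neutrophils (258 and 58.8 CPM) and mature migratory DCs (35.3 and 19.5 CPM) but higher in NK cells (81.5 and 186 CPM, where free RNA gives 51.8 and 14.1 CPM). The Fn1 transcripts of lymphocytes lay near free RNA: NK cells had 120.0 and 27.2 CPM, with 113 and 47.8 CPM from free RNA, and CD8-negative T cells 100.2 and 24.7 CPM, with 143 and 71.5 CPM. Lamc1, a laminin chain, stood at 138 and 86.9 CPM in CD8-negative T cells.

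Of the 8 integrin-associated membrane proteins, 1 of 8 in monocytes (all genes 3.74%), 2 of 8 in cDC2 (all genes 5%), 3 of 6 in neutrophils (all genes 22.7%) and 2 of 6 in CD8 T cells (all genes 10.8%) were counted, and 0 in the other 5 types. The tetraspanin Cd9 was lower in monocytes (151 and 93.9 CPM), cDC2 (162 and 104 CPM) and CD8 T cells (67.6 and 41.4 CPM). Plaur, the urokinase receptor, was higher in neutrophils (834 and 1286 CPM), and in CD8 T cells stood at 37.1 and 70.4 CPM beside 38.0 and 56.5 CPM from free RNA. In cDC2 the tetraspanin Cd81 was lower (9.52 and 5.53 CPM), and in neutrophils Cd82 was higher (73.2 and 112 CPM) and Bsg lower (300.4 and 182 CPM). Of the 9 genes of selectins and rolling, 1 of 5 in cDC1 (all genes 6.16%), 2 of 5 in neutrophils (all genes 22.7%), 1 of 4 in NK cells (all genes 8.24%) and 1 of 4 in CD8 T cells (all genes 10.8%) were counted, and 0 in the other 5 types. Gcnt1, a glycosyltransferase that builds the core of selectin ligands, was lower in NK cells (52.0 and 30.1 CPM), CD8 T cells (25.5 and 15.7 CPM) and cDC1 (10.3 and 6.20 CPM), with an interval of the fold that includes 1 in CD8 T cells (0.365 to 1.04). The sialyltransferases St3gal4 and St3gal6 were higher in neutrophils (101 and 199 CPM, and 211 and 343 CPM). Of the 10 junctional and transmigration partners found in the count tables, 1 of 2 in cDC1 (all genes 6.16%), 1 of 2 in cDC2 (all genes 5%) and 1 of 2 in NK cells (all genes 8.24%) were counted: Cd99l2 in cDC1 (10.1 and 3.50 CPM) and Cxadr, the CAR ligand of JAML, in NK cells (16.7 and 6.88 CPM) were lower and Nectin2 in cDC2 (4.52 and 8.05 CPM) higher, and 0 were counted in macrophages, monocytes, mature migratory DCs, neutrophils and T cells, where 1 to 3 were tested. Of the 3 further integrin chains, 1 of 1 in CD8-negative T cells (all genes 10.9%) was counted. This gene, Itgb8, a partner of αV in TGF-beta activation, stood at 36.7 and 57.7 CPM in CD8-negative T cells, a fold of 1.57 (95% interval 1.01 to 2.47).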

How the data were processed

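Single-cell RNA sequencing libraries of CD45-positive tumour cells were compared, 1 per group. The values the authors deposited are raw UMI counts, in whole numbers. Cell Ranger 7.2.0 and mm10 are named in the submitters' processing notes. Chemistry and annotation release are not given in the sources used here. Barcodes were kept from 500 UMIs and 250 genes upward and up to 10% mitochondrial UMIs. Each cell went to the type with the most markers present, at a minimum of 3 of 8 markers for B, T and NK cells, 5 for macrophages and cDC1 and 4 for the others. Ties stayed out. No doublet caller was run. Lymphoid cells with at least 3 macrophage markers or passing the neutrophil, cDC1 or mature DC gate were set apart as mixed, and other doublets remain.

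UMIs were summed per type and library (Python 3.11.15, numpy 2.4.6, scipy 1.17.1, pandas 2.3.3). Intervals are exact Poisson for CPM, exact conditional binomial for folds and Clopper-Pearson for shares. The free-RNA estimate is the median, over 4 genes of the other lineage, of the type's CPM as a share of the library's. For neutrophils, nonclassical monocytes and pDCs, with too few probe UMIs, the highest value of any other type was used. Alternative clusters were made with scanpy 1.11.5 (2000 variable genes without the 31, 30 components, 15 neighbours, Leiden resolution 1). The calculation was tested on simulated data. Named in full were all genes counted at 1.5-fold, those at 20 CPM in both libraries of a type and each type's leading chains, and from each further list up to 3 genes with the largest ratio. The genes and lists were chosen with earlier results of these data known.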

Additional observations from a re-analysis of the deposited data

How the results depend on the processing

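No paired analysis was possible because each group has 1 library, and leaving out a replicate could not be done for the same reason. The count of genes at 1.5-fold was 0 in macrophages under every alternative run. In the other types, where 1 to 4 genes were counted, it moved with the settings, and the cause was not tested except where fewer or more genes were eligible. With 1 marker more in each gate, 4 genes were counted in cDC1 and 1 in cDC2. A minimum of 20 UMIs gave 7 in CD8 T cells, 6 in CD8-negative T cells, 4 in mature migratory DCs and 3 in neutrophils. A minimum of 200 UMIs gave 0 in CD8 T cells, mature migratory DCs, monocytes, neutrophils and cDC1. A pseudocount of 10 CPM, which shrinks ratios of low genes, gave 1 in CD8-negative T cells, mature migratory DCs and NK cells, 2 in T cells and 0 in monocytes, cDC1 and cDC2. Clusters in place of gates, which do not divide T cells, gave 1 in mature migratory DCs, 3 in neutrophils, 1 in T cells (Itga3, higher, where the gated T cells had 4 lower) and 0 in cDC2. Xist-only barcodes gave 4 in mature migratory DCs and monocytes and 2 in neutrophils and cDC2, and Y-only barcodes 1 in CD8 and CD8-negative T cells, 5 in monocytes and 2 in neutrophils and T cells. With each cell weighted equally the counts were 0 in monocytes and 1 in cDC2, and without cycling barcodes 1 in CD8 T cells and in T cells. With free RNA subtracted, an alternative chosen after seeing the data, they were 2 in monocytes and 3 in neutrophils. A mitochondrial limit of 5%, centring on the median gene and, chosen after seeing the data, leaving out the shared barcodes kept every count within 1.5 times. Log2 ratios of 4 genes changed sign in Y-only barcodes: Itga1 in NK cells (1.93), Itgae in monocytes (-0.14), Pecam1 in CD8 T cells (0.16) and Vcam1 in mature migratory DCs (0.35).

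Pairs summed over the 9 types numbered 70 with 1 marker more, 85 at 10 CPM, 47 at 50 CPM and, chosen after seeing the data, 67 with both chains above free RNA. Thinning to 2000 UMIs raised the share of cDC1 with an Itgae UMI to 34.7% and 23.9%. Depth limits the small types: 3 UMIs, the floor used for a gene at 0, amount to 0.156 and 0.120 CPM in macrophages but 3.34 and 2.75 CPM in CD8-negative T cells.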
